A study of Mus musculus with 17 samples.

Results

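The RNA-seq libraries described here follow mNRPCs (mouse neural retinal progenitor cells) through the later days of culture without bFGF (basic fibroblast growth factor). They are the day 7 libraries in BM and C set against the day 3 libraries in BM and C, 4 libraries of the 17 in the series, with the 2 day 5 libraries in BM and C used only to see whether a change was under way between them. They were chosen by treatment and day alone. BM is basic medium (DMEM/F12 with N2 and B27) with no bFGF and no CHIR99021, and C is BM with CHIR99021, which inhibits GSK-3. The cells are 1 line from the neural retina of adult C57BL/6 mice, maintained on Matrigel with bFGF and CHIR99021. During the experiment the cells in BM had neither agent and those in C had no bFGF. The day 0 control is described in the study as cells in BM, and how long they had been in it is not said. The labels give no dose, and each treatment and day has 1 library. A day therefore cannot be told apart from whatever was particular to the cultures or the harvest of that day, and no value below carries the spread between cultures.

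bFGF signals through FGF receptors to the RAS-ERK cascade and is a standard mitogen of neural progenitors in culture, where its removal is known to slow the cell cycle and to permit differentiation. CHIR99021 stabilises beta-catenin and so switches on canonical Wnt targets. Cells left for days without a mitogen also meet other changes in a dish, among them in density, oxygen, nutrients and secreted matrix, and the genes that respond to these are described by role in what follows.

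The 6 libraries were of even depth, with total expected counts between 17843055 and 18513598. RNA of some of the markers that the study names was present, and that of others was nearly absent. On days 3 and 7 without bFGF Pax6 lay between 152 and 207 FPKM (fragments scaled by transcript length and library depth), Sox2 between 60.4 and 89.9, and Six3 between 58.5 and 62.9. Pax6 and Six3 were above their day 0 levels of 24.2 and 25.2. Rax, Gfap and Rbfox3 reached at most 0.12 FPKM in any of the 6 libraries and Rcvrn at most 0.21, and 14 of 24 listed retinal progenitor factors stayed below 1 FPKM in all 6 libraries. The study reports RCVRN, GFAP and NEUN (encoded by Rbfox3) by immunofluorescence, and RAX and GFAP by RT-PCR. Those cells were kept with bFGF and CHIR99021, so both the measure and the culture differ from those here. Markers of rods, cones, ganglion cells, endothelium, microglia and oligodendrocytes were also mostly below 1 FPKM. The poly-A libraries are of whole cultures, in which fewer cells of a type and less RNA per cell cannot be told apart.

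Of the 11343 genes tested (mean FPKM over the 4 libraries 1 or more), 2636 were higher on day 7 and 2589 were lower. A gene was called where edgeR's quasi-likelihood test, with CHIR99021 as a covariate, gave a Benjamini-Hochberg adjusted p under 0.05 and the change had the same direction in BM and in C. These calls are 23.2% and 22.8% of the genes tested, and most of them were small, with a median size of 0.38 on the log2 scale. At least 2 times higher were 243 genes (2.14%) and at least 2 times lower 122 (1.08%). With 2 libraries a day and 1 covariate, the fit has 1 residual degree of freedom and lends every gene the same spread. That spread, a coefficient of variation of 5.25%, is how far BM and C departed from a common change, not how far cultures vary, and this makes the p-values very small. DESeq2, which gives each gene more of its own spread, called 1034 higher and 1139 lower, among them 324 of the 365 genes changed at least 2 times. Counts of a list's members are to be read against the shares of all genes given here. The filter takes the mean over both days, so a gene below 1 FPKM on day 3 was tested only through its day 7 level. Col14a1, Fmod, Aqp4 and Map2 are such genes. Counts of rises in lists with members of low level are thus partly fixed by the filter. The size of a change and its direction in both treatments carry the description below. Some named genes are said to have day 3 and day 7 values that do not overlap. The share of all genes tested that show this was not counted. For genes picked as called it adds no support to the call.

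**Figure D1:**
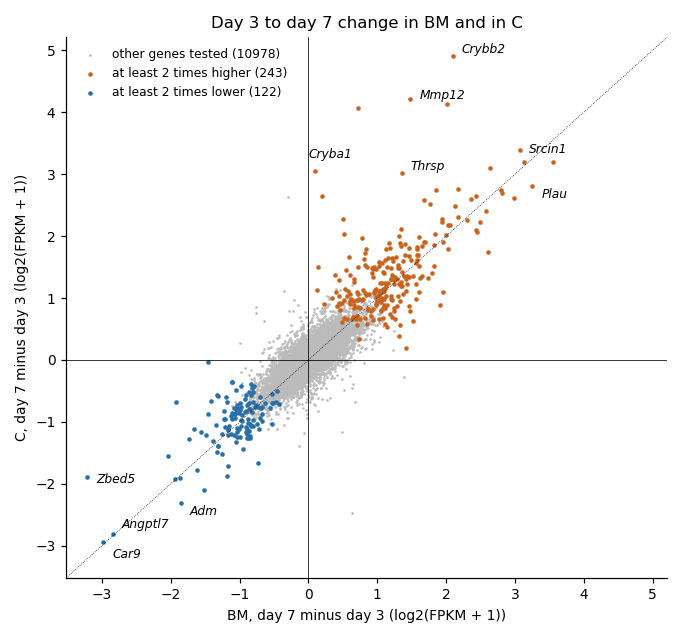
Change from day 3 to day 7 in BM (horizontal axis) and in C (vertical axis), in log2(FPKM + 1) units, for the 11343 genes tested, with the 243 genes at least 2 times higher in orange and the 122 at least 2 times lower in blue. Most of the coloured genes lie along the dotted line of equal change, while crystallin genes and Mmp12 rose further in C.

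No gene was found to change at a different pace in BM and C. In a test of the trend over days 3, 5 and 7 in BM against that in C, edgeR called 0 of 11356 genes (145 had an unadjusted p under 0.05), and limma on log2(FPKM + 1) also called 0 (186 with an unadjusted p under 0.05). With 3 libraries in each treatment this test is coarse and does not show that the treatments moved alike.

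Genes of the response to low oxygen fell, and of the lists with at least 10 genes tested theirs had the lowest median. HIF transcription factors accumulate when oxygen is short, bind a short core sequence near their targets and raise glycolysis, pH control and angiogenic signals. Of 20 listed HIF targets tested, 15 were lower on day 7 and 2 were higher, with a median log2 fold change of −0.75, beside a median of 0.00 over all genes, and 8 of the 15 fell at least 2 times. On the unscaled values the median was −0.56 in BM and −0.74 in C, in units of log2(FPKM + 1).

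The promoters of 4 of the targets that fell are printed because the HIF core, ACGTG or GCGTG, can be read in them. Each run is the 250 bases before a transcription start in RefSeq (build GRCm38.p6), on the strand of the gene, with every match to the core in capitals. A match on the opposite strand reads CACGT or CACGC, and neighbouring matches can overlap. The Car9 run is chr4:43506776-43507025 on the plus strand, that of Adm chr7:110627407-110627656 on the plus strand, that of Ankrd37 chr8:45999851-46000100 on the minus strand and that of Bnip3 chr7:138909507-138909756 on the minus strand.
Car9: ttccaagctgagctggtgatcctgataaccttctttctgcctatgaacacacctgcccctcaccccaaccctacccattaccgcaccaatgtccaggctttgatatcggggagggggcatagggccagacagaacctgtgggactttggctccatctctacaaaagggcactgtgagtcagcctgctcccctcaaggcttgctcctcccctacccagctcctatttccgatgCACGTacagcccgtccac
Adm: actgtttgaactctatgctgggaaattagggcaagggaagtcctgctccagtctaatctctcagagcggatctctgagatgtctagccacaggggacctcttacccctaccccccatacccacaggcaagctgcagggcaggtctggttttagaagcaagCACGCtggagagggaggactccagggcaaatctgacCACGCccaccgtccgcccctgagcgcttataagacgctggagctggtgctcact
Ankrd37: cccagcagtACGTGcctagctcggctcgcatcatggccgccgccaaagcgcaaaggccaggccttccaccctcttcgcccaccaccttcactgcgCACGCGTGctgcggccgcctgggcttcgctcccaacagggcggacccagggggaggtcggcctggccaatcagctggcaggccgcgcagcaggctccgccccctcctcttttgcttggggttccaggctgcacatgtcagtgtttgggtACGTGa
Bnip3: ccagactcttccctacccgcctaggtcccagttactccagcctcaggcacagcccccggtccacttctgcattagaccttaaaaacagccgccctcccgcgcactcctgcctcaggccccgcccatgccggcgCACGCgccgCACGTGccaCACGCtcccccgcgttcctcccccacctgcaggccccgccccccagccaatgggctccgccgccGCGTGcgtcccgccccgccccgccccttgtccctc

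Car9 holds 1 match, at −18 from the start, Adm 2, Ankrd37 4 and Bnip3 5. The core is short and common: 58.5% of the 9114 tested genes with a promoter in the table hold it at least 1 time, against 16 of the 18 HIF targets that matched (88.9%), and 29.1% hold it 2 or more times, against 12 of 18. Among the 13 called lower, 11 hold it (84.6%) and 7 hold it 2 or more times (53.8%), while the 5 members not called lower (Slc2a1, Hk2, Higd1a, Stc2 and P4ha2) each hold it 2 or more times. Vegfa and Mxi1, both lower on day 7, hold none in the window read. A match says only that the letters are there.

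Car9, a membrane carbonic anhydrase that exports acid, had the largest fall in fitted log2 fold change among the genes named. It was at 28.6 FPKM in BM and 32.02 in C on day 3, at 8.91 and 6.88 on day 5, and at 2.76 and 3.29 on day 7, close to the 2.46 of the day 0 control. Every day 7 value lay below every day 3 value (log2 fold change −3.38 ± 0.11 SE, edgeR adjusted p = 4.94e-205). Adm, which encodes the vasodilator peptide adrenomedullin, went from 22.1 FPKM in BM and 27.1 in C to 5.4 and 4.67 (−2.33 ± 0.12), and most of that fall was present on day 5, at 6.96 and 5.45. Ankrd37, a small target at low level, fell from 5.9 and 8.25 FPKM to 1.41 and 1.16 (−2.41 ± 0.25). These 3 genes went down in both treatments with no overlap between the days.

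Ero1l, an oxidase that forms disulfide bonds in the endoplasmic reticulum, started higher in C (79.8 FPKM) than in BM (45.5) and reached 21.04 and 19.5, a log2 fold change of −1.62 ± 0.08. Angptl4, a secreted inhibitor of lipoprotein lipase, fell from 101 and 175 FPKM to 44.4 and 52.5 (−1.51 ± 0.08). The mitophagy receptor gene Bnip3 fell from 78.6 and 122 to 40.05 and 44.5, and Egln3, a prolyl hydroxylase that marks HIF for degradation, from 21.9 and 32.4 to 10.6 and 14.98. In all 4 the day 3 and day 7 values were apart, and C held the higher day 3 level. Pdk1, Mxi1, Ddit4, Kdm3a, Vegfa, Bnip3l, Egln1 and P4ha1 were lower by 0.22 to 1.10 on the log2 scale, P4ha1 by the least, and DESeq2 did not call P4ha1. P4ha2, Higd1a and the glucose transporter Slc2a1 were not called, and Stc2, a secreted glycoprotein, rose (1.58 ± 0.16, from 2.67 and 2.01 to 7.56 and 6.81 FPKM). Hk2 was called higher by 0.21 in edgeR but not in DESeq2.

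Glycolysis genes, several of them HIF targets too, moved less. Of 22 tested, 11 were lower and 3 were higher, with a median log2 fold change of −0.22. The neuronal type glucose transporter gene Slc2a3 fell from 25.6 FPKM in BM and 21.6 in C to 10.9 and 8.8 (−1.32 ± 0.08), and Gpi1, the second enzyme of the pathway, from 489 and 629 to 237 and 281 (−1.15 ± 0.08). Aldoa (−0.60), Eno1 (−0.63) and Pgk1 (−0.50) fell less. Pkm, at 718 FPKM in BM and 907 in C on day 3, was at 753 and 917 on day 7 and was not called, and Aldoc and Pfkfb3 were higher by 0.28 and 0.32. The fall of glycolysis genes was thus uneven along the pathway, and without the day 3 library of C the median was −0.02.

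**Figure D2:**
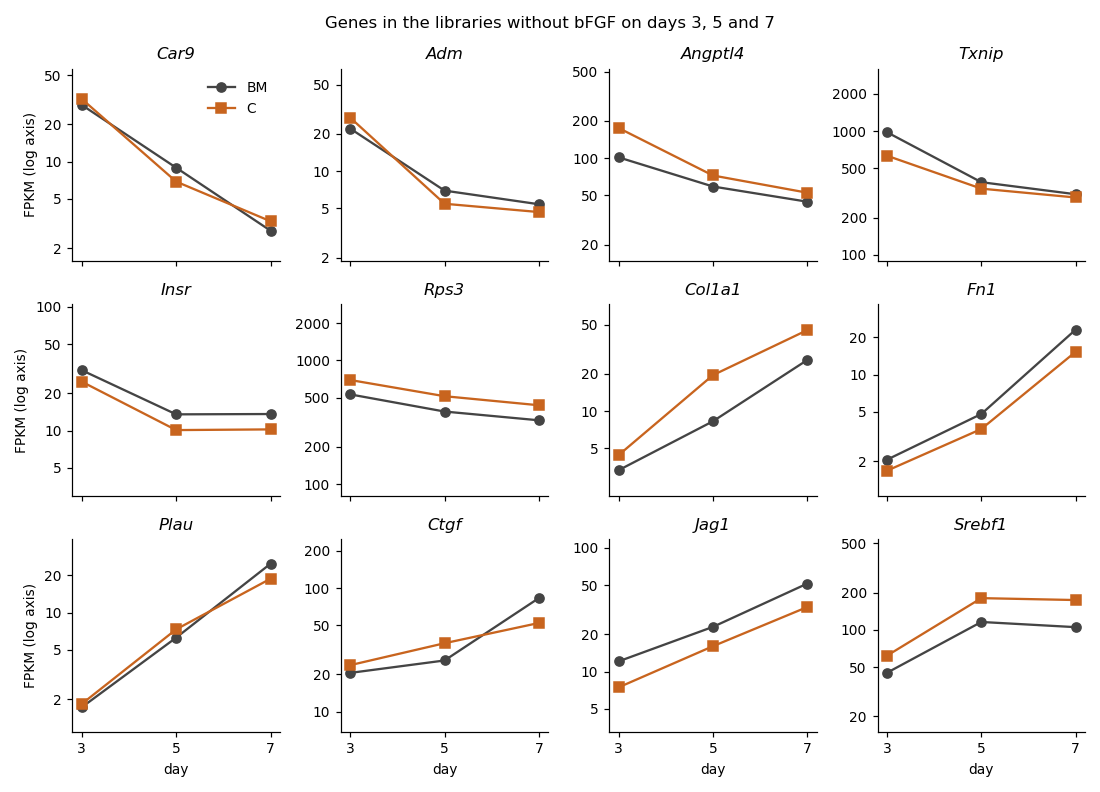
FPKM (log axis) of 12 genes on days 3, 5 and 7 in BM (grey circles) and C (orange squares), 1 library a point, with each panel spanning the same fold. Car9, Adm, Angptl4, Txnip, Insr and Rps3 fell in both treatments, and Col1a1, Fn1, Plau, Ctgf, Jag1 and Srebf1 rose, with Insr and Srebf1 near their day 7 level on day 5 and Fn1 rising mostly after it.

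Genes of growth control fell as well. The insulin and IGF receptors pass nutrient signals through IRS adaptors to AKT, which keeps FOXO transcription factors out of the nucleus. Of 11 genes of the IGF pathway tested, 8 were lower and 3 were higher. Insr, the insulin receptor, went from 30.7 FPKM in BM and 24.8 in C to 13.6 and 10.2 (−1.27 ± 0.08). Irs1 (−1.24), Irs2 (−1.20) and Igf1r (−0.72) fell with it. The 3 that rose encode secreted IGF-binding proteins: Igfbp2, from 5.36 and 5.27 FPKM to 19.43 and 36.5, Igfbp3, from 1.07 and 0.77 to 4.27 and 6.63, and Igfbp7. Igfbp3 and Igfbp7 (1.02 and 0.36 FPKM on day 3) averaged under 1 FPKM on day 3. They were tested only through their day 7 level, so their rise was favoured by the filter. Among the binding protein genes above that level on day 3, Igfbp2 rose, while Igfbp6 fell from 3.48 and 3.95 FPKM to 1.82 and 1.51.

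Of 21 tested genes listed for quiescence and FOXO, 14 fell and 4 rose, with a median of −0.36. Txnip, an inhibitor of thioredoxin and of glucose uptake, was among the most abundant genes on day 3, at 982 FPKM in BM and 634 in C, and was at 309.5 and 291 on day 7 (−1.44 ± 0.08). The growth arrest genes Gadd45a and Gas1 fell by 1.57 and 1.17 on the log2 scale. Gadd45a fell from 91.9 and 87.9 FPKM to 24.9 and 31.9 on day 5 and was no lower on day 7, at 26.9 and 35.6. Foxo3 (−0.50), Foxo4 (−0.64), Sesn1 (−0.71) and Ccng2 (−0.61) fell too, whereas Foxo1 (0.26), Gadd45g (0.54), Sod2 (0.36) and Foxo6 rose, the last at 1.28 to 3.27 FPKM. The CDK inhibitor gene Cdkn1b, itself a FOXO target, fell from 68.8 and 68.7 FPKM to 44.97 and 43.6 (−0.68 ± 0.07).

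Ribosomal protein genes fell together by a small amount. Of 82 tested, 75 were lower and 1, Rps27l, was higher, with a median log2 fold change of −0.44, and without each library in turn the median lay between −0.60 and −0.31. Rps3 went from 531 FPKM in BM and 694 in C to 328 and 434 (−0.73 ± 0.08). Rps27 fell by 0.75, and the paralog Rpl22l1 was the 1 member that fell at least 2 times (−1.06). Many ribosomal protein genes have processed pseudogenes, so their counts are uncertain where reads are shared. The abundant translation genes Tpt1, from 1991 and 2178 FPKM to 1171 and 1154, and Eef1a1, from 2895 and 3469 to 2146 and 2405, were among the 5 genes with the largest falls in FPKM itself. The others were Nupr1, a stress-induced chromatin protein gene, from 3895 and 3767 to 2082 and 1771 with its lowest values on day 5, the intermediate filament gene Vim, from 2129 and 2601 to 1229 and 1380.4, and the ferritin gene Ftl1 (−0.31 ± 0.07).

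Interferon-stimulated genes were lower on day 7, most of them slightly. Interferon receptors act through transcription factors that bind a repeated GAAA sequence near antiviral genes. Of 37 tested, 27 were lower and 2 were higher, with a median log2 fold change of −0.34. DESeq2 called 15 genes of the list, so many of the small falls do not pass in that tool. Ifit2 fell from 70.7 FPKM in BM and 83.3 in C to 39.2 and 39.2 (−1.002 ± 0.08), Oas3 from 31.6 and 32.6 to 20.7 and 14.6 (−0.92 ± 0.07), and Rsad2, encoding the antiviral enzyme viperin, from 51.6 and 69.3 to 34.8 and 33.8 (−0.85 ± 0.07). The day 3 and day 7 values of these 3 genes did not overlap. Isg15, at 413 and 539.5 FPKM on day 3, was at 466 and 436 on day 7, up in BM and down in C, and was not called. Among the others not called were Oas1a, Oas2, Ddx58, Ifi35, Igtp and Zbp1. Ifi27 rose against the rest, from 42.4 and 40.6 to 94.8 and 117 FPKM (1.29 ± 0.08). Members of the Ifit, Oas and Gbp families resemble each other in sequence and may share reads.

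The promoters of Ifit1 and Ifit3, 2 of the members that fell, show the repeat (GAAA, any 2 letters, GAAA) in capitals, read here on the opposite strand as TTTC, any 2 letters, TTTC. The Ifit1 run is chr19:34640639-34640888 on the plus strand and the Ifit3 run is chr19:34583279-34583528 on the plus strand, again the 250 bases before a RefSeq start in GRCm38.p6.
Ifit1: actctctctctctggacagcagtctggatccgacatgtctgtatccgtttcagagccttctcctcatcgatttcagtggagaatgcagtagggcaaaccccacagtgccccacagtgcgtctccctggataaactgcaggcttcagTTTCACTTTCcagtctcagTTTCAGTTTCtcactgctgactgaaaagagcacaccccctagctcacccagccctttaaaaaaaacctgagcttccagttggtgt
Ifit3: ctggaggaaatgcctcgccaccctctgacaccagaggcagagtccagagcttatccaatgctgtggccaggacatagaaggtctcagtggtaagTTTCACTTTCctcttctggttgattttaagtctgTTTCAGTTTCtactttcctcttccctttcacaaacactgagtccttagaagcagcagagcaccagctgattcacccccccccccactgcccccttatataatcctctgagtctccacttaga

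Both promoters hold 2 matches. At least 1 match was found in 2.53% of the 9114 promoters, in 13 of the 28 interferon-stimulated genes that matched the table (46.4%), and in 10 of the 23 of those called lower (43.5%). Ifit1 fell from 112 and 148 FPKM to 93.7 and 86.6 and Ifit3 from 205 and 229 to 166 and 127, further in C in both cases, and DESeq2 called neither. The chemokine gene Ccl5, another interferon-responsive gene, fell steeply, from 426 and 515 FPKM to 171 and 195 (−1.40 ± 0.08). Of 19 MHC class I and antigen presentation genes, 6 were lower, 1 was higher and 12 were not called. H2-T23 was at 278 and 316 FPKM on day 3 and at 236 and 254 on day 7.

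Collagen genes and many genes of matrix turnover rose, with Plau, Fn1, Col1a1 and Col4a3 among the largest rises named, while genes for matrix glycoproteins were split. Collagens form the fibrils and networks of the matrix, and plasmin and the metalloproteases cut them. Of 40 listed collagen genes 24 were tested. Of these, 19 were higher and 4 were lower, with a median log2 fold change of 1.17, and 13 rose at least 2 times. Col14a1 and Col27a1 averaged under 1 FPKM on day 3 and were tested only through their day 7 level. The counts of rises are thus partly fixed by the filter. Col1a1, a chain of fibrillar collagen I, was at 3.33 FPKM in BM and 4.41 in C on day 3, at 8.28 and 19.5 on day 5 and at 25.9 and 45.2 on day 7 (3.13 ± 0.08, adjusted p = 6.81e-290). Col3a1, far more abundant, rose from 144 and 132 to 368 and 317 (1.26 ± 0.08). The collagen VI chains Col6a1 (1.81 ± 0.08) and Col6a2 (2.20 ± 0.08) rose alike. In each of these genes both day 7 values were above both day 3 values.

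Collagen IV, the network of basement membranes, was split by chain. Col4a3 rose from 1.45 and 1.65 FPKM to 12.3 and 15.5 (3.12 ± 0.09), and Col4a4 from 4.95 and 6.07 to 16.8 and 23.4 (1.87 ± 0.08). The abundant chains Col4a1 and Col4a2 rose by 0.46 and 0.50. Col4a5, from 89.7 and 88.2 to 68.8 and 63.6, and Col4a6 fell, by 0.47 and 0.40. Each of these genes shares its promoter region with its neighbour in a head-to-head pair in the genome (Col4a1 with Col4a2, Col4a3 with Col4a4, Col4a5 with Col4a6), and both members of a pair moved the same way here. Col18a1 was not called, and Col9a3 and Col20a1 were lower by 0.62 and 0.37 from day 3 levels of 1.74 to 3.31 FPKM, in edgeR but not in DESeq2.

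Fn1, which encodes fibronectin, rose from 2.05 FPKM in BM and 1.67 in C to 4.8 and 3.63 on day 5 and then to 23.1 and 15.3 (3.36 ± 0.09). Of 22 genes for basement membrane and matrix glycoproteins, 10 rose and 7 fell. Among the risers were Fmod, a collagen-binding proteoglycan (3.23 ± 0.16), Sparcl1 (2.07), the microfibril gene Fbn1 (1.87), Vcan (1.13) and Sparc. Sparc went from 351 and 451 FPKM to 717 and 842 and, with Spp1 (osteopontin, 669 and 1092 to 1359.8 and 1659), was among the 5 largest rises in FPKM itself. Most of the laminin genes called went the other way. Lama3 (−0.72), Lamb2 (−0.34), Lama5 (−0.27) and Lama2 (−0.22) fell, Lamb1 and Lamc1 were not called, whereas Lama4 rose (1.06).

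Of 23 matrix proteases and inhibitors, 14 rose and 6 fell. Mmp12 and Mmp3, below 1 FPKM on day 3, were tested only through their day 7 level, so the count of rises is partly fixed by the filter. Plau, the urokinase that activates plasmin, went from 1.72 and 1.83 FPKM to 24.9 and 18.8 (3.57 ± 0.12). Plat, which also activates plasmin, rose too (0.99), as did the metalloprotease inhibitor gene Timp1 (1.33 ± 0.08). Mmp13 (2.71 ± 0.13) and Mmp9 (1.16 ± 0.21) rose in both treatments, while Mmp12 was at 0.09 and 0.06 FPKM on day 3 and reached 2.04 in BM and 18.6 in C. Proteases and a protease inhibitor thus rose side by side. Adamts20 (−1.05), Adamts5 (−0.75), Adamts9 (−0.63) and Timp3 (−0.46) fell.

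Ctgf is a known target of TGF-beta and of YAP. Of 18 tested genes in a list of such targets, ligands and inhibitors, 10 rose and 6 fell. Ctgf went from 20.6 and 23.8 FPKM to 82.97 and 52.2, with 25.96 and 35.8 on day 5, and the ligand gene Tgfb1 from 46.5 and 37.3 to 83.3 and 71.8. The YAP targets Cyr61 (−0.41), Amotl2 (−0.22) and Ajuba (−0.30) fell and Ankrd1 was not called. The list did not move as a whole in either direction.

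Several of these genes also mark fibroblasts. Of 10 tested fibroblast and mesenchyme markers, 6 rose (Col1a1, Fn1, Postn, Col3a1, Fap and Dcn) and 3 fell (Fbln1, Pdgfra and Prrx1), and Twist1 was not called. Their summed level over the 14 listed genes was 298 and 275 FPKM in BM and C on day 3, 574 and 463 on day 5, and 650 and 606 on day 7, and 2 of the 14 stayed below 1 FPKM. Whether the share of such cells rose was not tested. Pdgfrb, a receptor of pericytes and mesenchyme, rose from 79.4 and 79.6 FPKM to 115 and 107, and the smooth muscle actin gene Acta2 was lower in edgeR (−0.19 ± 0.07) but not in DESeq2, and turned to 0.27 without the day 3 library of BM and to 0.26 without the day 7 library of C. Of 14 endothelial and pericyte markers, 11 stayed below 1 FPKM in all 6 libraries.

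**Figure D3:**
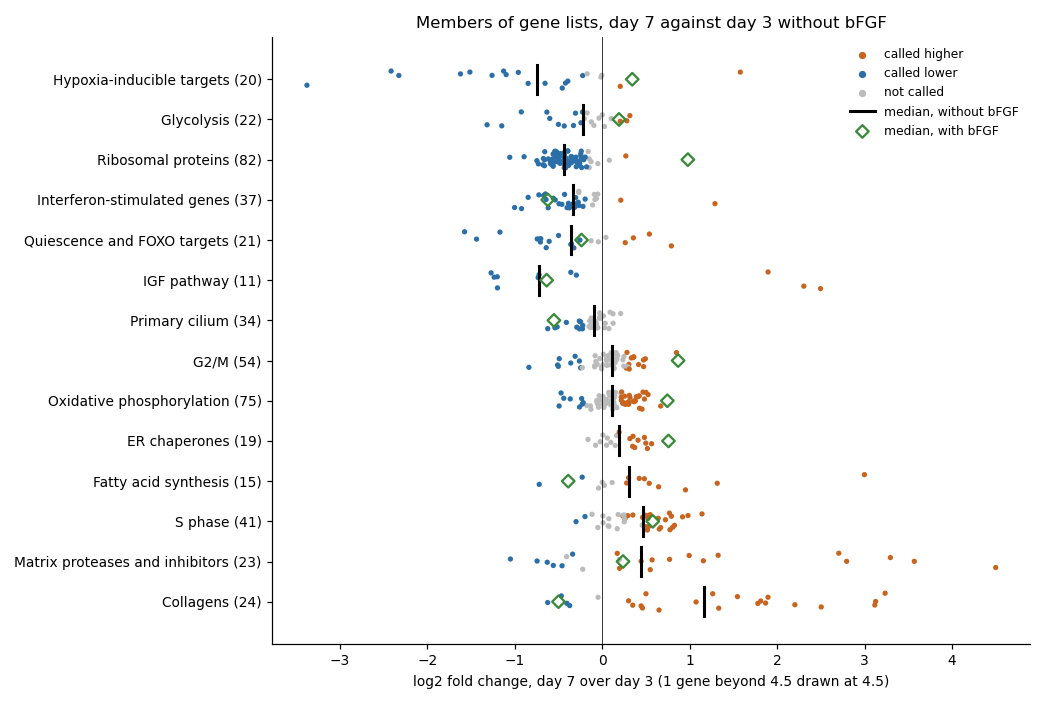
Log2 fold change of day 7 over day 3 without bFGF for the tested members of 14 gene lists (their number in brackets), each point a gene coloured by its call, with the list's median as a black bar and its median in the libraries with bFGF as a green diamond. The hypoxia-inducible targets lie furthest to the left and the collagens furthest to the right. The diamonds of the hypoxia-inducible targets, the glycolysis genes, the ribosomal proteins, the collagens and the fatty acid genes lie on the other side of 0 from the bars. All medians drawn are from edgeR's scaled counts. On unscaled FPKM the medians with bFGF of the hypoxia-inducible targets (−0.03) and the glycolysis genes (−0.13) were below 0, as without bFGF.

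Genes of fatty acid synthesis rose, and had done so by day 5. SREBF1 is the factor that drives this pathway. Srebf1 went from 45.01 FPKM in BM and 61.9 in C to 116 and 181 on day 5 and 105 and 174 on day 7 (1.32 ± 0.08). Of 15 tested genes, 9 rose and 2 fell, with a median of 0.30. Scd2, a desaturase, rose from 144 and 204 to 291 and 401 (0.95 ± 0.08), and the synthase and carboxylase genes Fasn (0.64) and Acaca (0.54) rose less. Thrsp, a lipogenic nuclear protein, differed between treatments: it went from 0.76 to 3.51 FPKM in BM and from 9.47 to 83.6 in C (3.00 ± 0.13). Thrsp came to −0.59 where the day 7 library of C was left out, in a fit with no CHIR99021 term. Acacb and Acss2 fell. Of 24 cholesterol synthesis genes 8 rose, by at most 0.52 (Dhcr7), and 2 fell, among them Fdft1 (−0.29).

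Genes of DNA replication rose slightly, from levels far below those of day 0. Of 41 S phase genes tested 25 were higher on day 7 and 2 were lower, with a median of 0.46. Mcm5, a subunit of the replicative helicase, was at 2.52 and 2.6 FPKM on day 3 and 5.2 and 4.78 on day 7, against 67.4 on day 0, and Uhrf1 went from 4.72 and 4.39 to 8.93 and 7.9, against 72.7. Pcna (0.67), Mcm2 (0.79) and Rrm2 (0.77) rose as well. These rises are of low levels, and DESeq2 called 6 of the genes in the list. Of 54 G2/M genes 12 were higher, 8 were lower and 34 were not called. Mki67, at 8.34 and 9.1 FPKM on day 3 and 9.84 and 9 on day 7, was not called, nor was Ccnd1 (116 and 79.7, then 129 and 82.9). The G2/M members that rose most were Tubb4b (0.85 ± 0.08), a tubulin gene that is not specific to mitosis, and Nuf2 (0.49), and Psrc1 fell most (−0.84 ± 0.17).

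Signalling genes changed member by member. In the Notch pathway, where a ligand on a neighbouring cell releases the receptor's inner part to RBPJ, 4 of 16 genes rose and 8 fell. The ligand gene Jag1 rose from 12.1 and 7.47 FPKM to 51.6 and 33.3 (2.08 ± 0.08) and the target Hes1, which maintains progenitors, from 24.2 and 19.02 to 62.7 and 45.00 (1.27 ± 0.08). The ligand gene Dll1 (−0.95), the receptor gene Notch2 (−0.87) and Rbpj (−0.62) fell. Of 18 ERK feedback genes, 6 rose and 9 fell. The phosphatase gene Dusp6, a standard readout of ERK, fell from 17.9 and 9.75 FPKM to 8.01 and 4.86 (−1.14 ± 0.10), as did Spry2 (−0.58) and Etv1 (−0.95), while Egr1 rose from 21.4 and 18.5 to 56.5 and 43.4 (1.27 ± 0.07) with Dusp5 (1.23), Etv4 (0.98) and Fosl1 (0.88). The list was thus split, with DUSP and ETV genes on both sides.

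Wnt5a, which the study follows, was at 34.9 and 38.4 FPKM on day 3 and 36.7 and 40.1 on day 7 and was not called. Wnt7a (1.79 ± 0.14) and Wnt7b, from 137 and 203 to 228 and 306, rose, and the secreted antagonist gene Dkk2 fell from 61.8 and 27.8 to 28.6 and 14.8 (−1.06 ± 0.07). Canonical Wnt feedback genes rose in 4 of 8 cases and fell in 1, and Notum, higher in C on each day (4.95 and 7.32 FPKM against 1.12 and 1.65 in BM), was higher by 0.51 in edgeR, not called by DESeq2, and turned to −0.16 without the day 3 library of BM and −0.91 without the day 7 library of C. In the BMP pathway Bmp4 (−0.99 ± 0.17), its antagonist Chrd (−0.97 ± 0.10) and Smad6 (−0.63) fell. The cytokine gene Lif rose from 6.05 and 6.18 to 27.6 and 23.9 FPKM (2.03 ± 0.08), and Fgfr3 from 0.64 and 1.51 to 1.9 and 6.27.

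Among progenitor factors, Pax6 (−0.31 ± 0.07), Sox2 (−0.31 ± 0.07) and Meis2 (−0.65) were slightly lower on day 7, Six3 was not called, and Nes, encoding the filament protein nestin, was higher, from 12.46 and 6.94 to 20.9 and 11.2 FPKM (0.67 ± 0.08). Of 12 tested Muller glia markers 8 rose and 3 fell. Apoe, a lipid carrier of glia, rose from 47.3 and 49.04 to 104 and 173 (1.44 ± 0.07), and Sox9 (0.52), Dbi (0.81) and Rdh10 (0.84) rose as well, while Glul, the glutamine synthetase that defines these cells, fell from 18.7 and 18.8 to 12.4 and 16.9. Slc1a3 and Rlbp1, which also define them, reached at most 0.05 and 0.13 FPKM, and 8 of 20 listed markers stayed below 1 FPKM. Of 16 tested genes of astrocytes and reactive glia 10 rose and 2 fell. Serpina3n, a protease inhibitor of reactive astrocytes, went from 165 and 187 FPKM to 412 and 750.1 (1.62 ± 0.08), S1pr3 from 35.1 and 46.5 to 94.6 and 153, and Gfap, the defining filament gene, reached at most 0.12.

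Ptgds, a prostaglandin synthase of ciliary epithelium and meninges, rose from 12.6 and 13.3 FPKM to 60.7 and 96.2 (2.53 ± 0.10). It was the 1 member called higher of 5 tested ciliary body and iris epithelium markers. Bmp4 and Opcml were lower and 2 were not called, with a median log2 fold change of −0.02. Of 8 tested lens crystallin and filament genes 7 were called higher in edgeR, but DESeq2 called 4, and several had a mean of 1 FPKM only through their day 7 level in C, so that the count was partly fixed by the filter. Crybb2 went from 0.2 to 4.14 FPKM in BM and from 0.38 to 40.6 in C, Cryba1 was listed at 0 on day 3 in both and at 0.07 and 7.34 on day 7, and Bfsp2 went from 2.02 to 8.17 and from 8.01 to 34.5. Cryab, by far the most abundant, was not called. Of 20 listed neuronal genes 5 could be tested, of which 4 rose from low levels and 1, Celf4, fell (−0.46, from 8.27 and 7.34 FPKM to 6.03 and 5.53). Map2 went from 0.63 and 0.51 FPKM to 3.8 and 2.52, Tubb3 from 1.23 and 2.33 to 3.75 and 7.87, and Gap43 and Mapt by 1.12 and 0.56. Map2 was tested only through its day 7 level, so its rise was favoured by the filter. No marker of ganglion cells reached the mean of 1 FPKM needed for testing, and 1 of 16 rod markers did.

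Organelle genes moved little. Of 75 genes for subunits of oxidative phosphorylation 27 rose and 8 fell, none by 2 times, with Uqcrq the highest (0.67) and Ndufa6 the lowest (−0.49). Of 19 chaperone genes of the endoplasmic reticulum 10 rose and none fell, with a median of 0.19 and Calr the highest (0.56). Of 44 lysosomal genes 15 were higher (34.1%) and 11 lower (25%), the latter near the 22.8% of all genes tested, and the protease genes Ctsc, from 0.49 and 1.23 FPKM to 5.72 and 10.1, and Ctsd, from 896 and 882 to 1462 and 1828, rose most. Of 22 ATF4 targets 12 rose and 3 fell, and Slc7a11, the cystine carrier, rose from 1.46 and 3.07 to 2.79 and 7.07. Of 34 primary cilium genes 10 fell (29.4%, against 22.8% of all genes tested), by at most 0.62 (Inpp5e), and none rose.

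The rule for the largest changes also gave genes outside the lists. The largest rise under that rule, which leaves out genes of low level, was that of Srcin1, an adaptor that restrains SRC, from 0.94 FPKM in BM and 1.12 in C to 15.3 and 21.4 (4.11 ± 0.10). Dusp15, a phosphatase, went from 2.04 and 1.58 to 25.6 and 22.7, Slc38a3, a glutamine transporter, from 3.49 and 9.28 to 30.2 and 67.7, and Angpt4, an angiopoietin, from 1.15 and 0.92 to 8.46 and 9.76. On day 0 the first 3 were at 0.01 to 0.02 FPKM. Among the largest falls, Angptl7, a secreted protein of the eye's outflow tissue, went from 198 and 91.2 to 26.8 and 12.1 (−2.94 ± 0.08), Galnt15, a glycosyltransferase, from 14.8 and 11.2 to 4.14 and 2.56, and Scara5, a ferritin receptor, from 21.5 and 7.16 to 7.01 and 2.52. Ly6c1 (−2.06 ± 0.11) has a near-identical neighbour, Ly6c2, so its count is uncertain. Mboat1 fell by 1.55, and Zbed5, from 14.7 and 6.65 FPKM to 0.69 and 1.06, was at 11.5 and 13.4 on day 5, above its day 3 level in C. Its fitted change from expected counts (−1.73 ± 0.23) is smaller than its fall in FPKM.

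The deposited tables carry cellular component terms for 9706 of the genes tested. Of these, 2.3% had an extracellular matrix term, against 33 of the 210 annotated genes that rose at least 2 times (15.7%) and 7 of the 107 that fell at least 2 times (6.54%). Nuclear terms were at 34.5%, 21.4% and 32.7%. Median gene length was 2815 bases over all genes tested, 2748 among the 2-fold rises and 2323 among the 2-fold falls, and the median log2 fold change ran from 0.04 in the shortest of 4 equal classes of genes to −0.05 in the longest.

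The change was mostly present on day 5. For the genes at least 2 times higher, the median share of the day 3 to day 7 change (on log2(FPKM + 1), mean of BM and C) reached on day 5 was 70.8%, and for those at least 2 times lower it was 81.1%, where an even pace would give 50%. At least 75% was reached by 102 of the 243 rising genes and 75 of the 122 falling ones, and under 25% by 12 and 2. The day 3 libraries enter both parts of this share, so a value particular to them pulls it towards 100%. On day 5 the level lay between the days on either side, in BM and in C, for 263 of the 365 genes (72.1%), against 31.9% of all genes tested. The 365 were picked for a wide gap between days 3 and 7, which by itself favours a day 5 level inside it. The 2 shares therefore do not show how steady the change was. A test of day as a number over the 3 days called 320 of the 365, and 2969 of all 11356 genes tested. With evenly spaced days its slope rests mainly on days 3 and 7, from which the 365 were picked. That count therefore does not show that the change was steady. Day 5 against day 3 gave 2231 genes higher and 2218 lower, and day 7 against day 5 gave 769 and 972, of which 50 and 5 by at least 2 times.

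**Figure D4:**
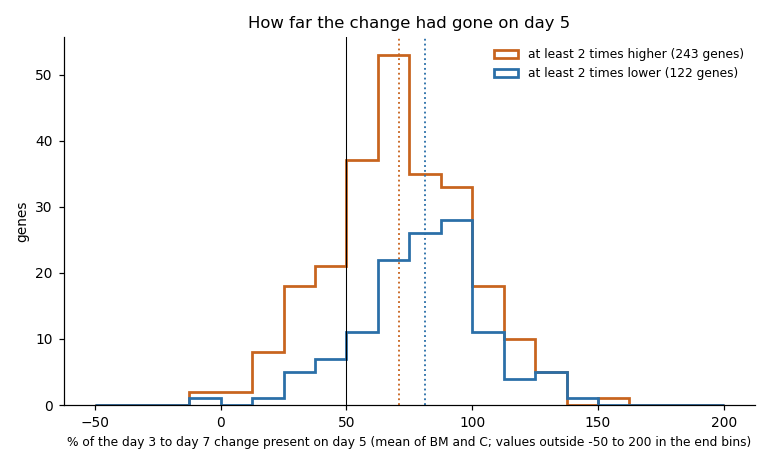
Number of genes by the share of the day 3 to day 7 change already present on day 5 (mean of BM and C, %), for the 243 genes at least 2 times higher (orange) and the 122 at least 2 times lower (blue), with dotted lines at the medians of 70.8% and 81.1% and a black line at the 50% of an even pace. Most of both groups lie to the right of the black line.

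The members of the lists that moved most differed in this pace. The 6 called fatty acid synthesis genes that moved by at least 0.5 on the log2 scale had a median of 107% on day 5. For Srebf1 the day 5 values (116 and 181 FPKM) were above those of day 7. Insr, at 13.5 and 10.1 FPKM on day 5, was also at its day 7 level by then. The corresponding medians were 82.5% for ribosomal proteins (32 genes), 78.2% for hypoxia-inducible targets (12) and 65.7% for interferon-stimulated genes (11). They were 56.8% for collagens (15) and 32.2% for TGF-beta and YAP targets (4). With so few genes in most of these medians, they do not give the pace of whole lists. Fn1, and Ctgf in BM (25.96 FPKM on day 5, 82.97 on day 7), made most of their rise after day 5 on this scale. Plau, at 1.72 FPKM in BM and 1.83 in C on day 3, was at 6.28 and 7.33 on day 5 and 24.87 and 18.81 on day 7.

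The libraries with bFGF (B is BM with bFGF, BC is BM with bFGF and CHIR99021), also 2 on day 3 and 2 on day 7, were set beside these to see whether the same change occurred with it. In a model of the 8 libraries, edgeR found the day 3 to day 7 change to be higher without bFGF than with it in 2727 of 11333 genes (24.1%) and lower in 2337 (20.6%). Scaling matters for this comparison: the median difference was 0.04 with TMM factors, but 0.40 on unscaled FPKM in limma, which gave 4816 higher and 1000 lower. Differences below are TMM-scaled, that is, relative to the bulk of genes. Of the 365 genes changed at least 2 times without bFGF, 314 could be tested, and 127 rises and 46 falls differed from the change with bFGF in their own direction. The 365 were picked from the same libraries without bFGF that enter this test, which favours such a difference.

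Hypoxia-inducible targets, lower as a list without bFGF, were not so with it. Their median with bFGF was 0.34 (−0.03 unscaled), and the difference was called lower without bFGF for 15 of the 20 and higher for 2. Car9 was at 171 FPKM in B and 213 in BC on day 3 and at 433 and 542 on day 7, so it was above the libraries without bFGF on both days and rose, and its difference was −5.10 (adjusted p = 1.04e-05). Adm (−3.23), Ero1l (−2.75), Ankrd37 (−3.09), Bnip3 (−1.64) and Ddit4 (−1.19) differed the same way, and for Egln3 (−0.22, adjusted p = 0.601) and Pdk1 (−0.47, adjusted p = 0.402), which fell in both settings, no difference was called. Ribosomal protein genes had a median of 0.98 with bFGF (0.60 unscaled), and the difference was called lower for 81 of 82. Oxidative phosphorylation and G2/M genes had medians of 0.11 and 0.11 without bFGF and of 0.74 and 0.87 with it, and 46 of 75 and 37 of 54 were called lower in the difference (24 and 24 unscaled in limma, which also put 6 and 3 higher).

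Collagens went the other way, with a median of −0.50 with bFGF, and of the 22 whose difference could be tested 13 were called higher without it and none lower. Col3a1 was at 76.5 FPKM in B and 131 in BC on day 3 and 60.3 and 66.6 on day 7, below every library without bFGF on day 7 (difference 1.57, adjusted p = 0.00443). Col1a1, at 0.14 to 1.53 FPKM in those libraries, Fn1 (3.30), Plau (2.94) and Srebf1 (1.79) also differed, as did 10 of 15 fatty acid synthesis genes. Interferon-stimulated genes had a median below 0 in both settings (−0.62 with bFGF), and their difference was called higher for 9 and lower for 8 of 37 (19 and 2 unscaled in limma). Insr (−1.45 with bFGF, difference 0.17, adjusted p = 0.346), Dusp6 (−1.16 with bFGF, difference 0.01), Galnt15 (−2.40) and Scara5 (−1.48) fell with bFGF too, and no difference was called for them, which does not show that the changes were equal.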

How the data were processed

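RNA-seq was done on mNRPC cultures, with poly-A mRNA selected, per the labels, and sequenced on the BGISEQ-500 platform, per the study's methods. The authors deposited, for each library, expected counts and FPKM per gene, with genes listed from 0.01 FPKM and unlisted genes read here as 0. The submitters' processing notes name Bowtie2, RSEM and mm10, whereas the methods name another counter. Expected counts were rounded to whole numbers. Libraries were grouped by treatment and day from the labels. Genes averaging 1 FPKM or more over the libraries compared were tested with edgeR 4.0.16 (TMM factors, quasi-likelihood test, R 4.3.3), day 7 against day 3 without bFGF with CHIR99021 as a covariate, and the fit was tested on simulated data. A call needed a Benjamini-Hochberg adjusted p under 0.05 and the same direction in BM and C. The change with bFGF was compared in 1 model of 8 libraries (CHIR99021, bFGF, day, and the interaction of bFGF and day). Nothing says that libraries came from separate cultures, so p-values measure only the spread between these libraries. With 17571973 to 19428744 expected counts a library, counting error is small for most genes tested, and none of it covers differences between cultures.

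Alternatives were RLE factors, DESeq2 1.42.0, limma 3.58.1 on log2(FPKM + 1) and log2(FPKM + 0.1), no filter or a minimum FPKM of 5, CHIR99021 left out, 6 or 8 libraries in the fit, other days and each library left out. The members and lists (54) were chosen with earlier results of these data known. Named genes are the 10 largest rises and falls among called genes with at least 10 expected counts in each of the 4 libraries and a mean FPKM of at least 5 (predicted gene models left out), the 5 largest rises and falls in FPKM, up to 4 called members of each list with a mean FPKM of at least 1 plus its defining members, and the markers the study follows. Further members are named to account for a list and were chosen after their values were seen. Promoters are the 250 bases before RefSeq starts in GRCm38.p6, the assembly also called mm10, and 9114 of the 11343 genes matched. Mitochondrially encoded genes were not analysed here, and some genes that the rule names are not reported here.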

Additional observations from a re-analysis of the deposited data

Results flagged for a closer look

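The change from day 3 to day 7 differed between the libraries without and with bFGF in an interaction test (edgeR, adjusted p under 0.05) for 2727 genes that were higher and 2337 that were lower without bFGF. Values below are the log2 change without bFGF minus that with it. The genes that fell or rose furthest were picked by their change without bFGF, which favours a difference in that direction. No group has the 4 or more libraries needed to look for a library that stands apart.

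Among the genes that fell furthest without bFGF, the difference was −5.10 for Car9, −2.29 for Angptl7, −3.23 for Adm, −2.75 for Ero1l and −3.39 for Gadd45a. With bFGF Car9, Adm, Ero1l and Gadd45a did not fall, with log2 changes of 1.71, 0.90, 1.07 and 1.90, and Angptl7 changed by −0.73.

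Among the genes that rose furthest, it was 5.45 for Srcin1, 4.47 for Dusp15, 2.94 for Plau, 3.30 for Fn1, 5.10 for Col1a1, 9.01 for Col4a3, 2.02 for Angpt4, 4.69 for Thrsp and 4.10 for Slc38a3. Col4a3 was at 0.01 and 0.08 FPKM in B and BC on day 3 and 0 and 0 on day 7, and Col1a1 at 0.56 and 1.53, then 0.14 and 0.25, and Srcin1, Dusp15 and Slc38a3 were between 0.05 and 0.35 in these libraries, so the sizes of these 5 differences are poorly determined.

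Among the most abundant genes it was −1.59 for Nupr1, −1.36 for Vim, −2.30 for Tpt1, −0.96 for Eef1a1, −1.43 for Ftl1, −0.86 for Ctsd, −1.13 for Spp1 and 0.79 for Sparc. Ctsd and Spp1 rose without bFGF and rose further with it, by 1.69 and 1.88.

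Of the markers the study follows, it was 1.30 for Pax6, 0.68 for Six3, 0.68 for Nes and 2.63 for Wnt5a. Pax6 fell slightly without bFGF and changed by −1.58 on the log2 scale with it, and Wnt5a, not called without bFGF, changed by −2.59 with it.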

How the results depend on the processing

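No called gene named, and no list median of over 0.05 in size, turned direction under RLE factors, other filters, DESeq2, limma or fits of 6 or 8 libraries, but the number of calls moved. Against 2636 genes higher and 2589 lower, DESeq2 called 1034 and 1139, leaving CHIR99021 out 356 and 298 (134 and 58 of at least 2 times), and day 7 against day 5, over the same genes, 754 and 950 (48 and 5). Of changes of at least 2 times, a limit chosen after seeing the data, there were 432 and 193 with no filter, 109 and 69 at a minimum FPKM of 5, and 142 and 70 for day 5 against day 3, also added after seeing the data. limma on log2(FPKM + 1), which shrinks low genes, gave 52 lower. Leaving out each library in turn, without the CHIR99021 term, gave 41 to 130 higher (41 to 108 of at least 2 times) and 4 to 130 lower (4 to 70). The counts were 84 and 56 without BM day 3, 130 and 130 without C day 3, 54 and 12 without BM day 7 and 41 and 4 without C day 7, and of the 365 genes changed at least 2 times 361 to 365 kept their direction. These fits hold 3 libraries and take the CHIR99021 effect into the change.

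Of 189 genes examined one by one, DESeq2 lost the call of 24 and limma of 5. Some values turned when a library was left out: Acta2 ranged from −0.75 to 0.27 (0.26 without C day 7), Klf2 from −1.39 to 0.36, Notum from −0.91 to 1.86 (−0.16 without BM day 3) and Thrsp from −0.59 to 5.79. Their lowest or highest turned values came without BM day 3 (Acta2, Klf2) or C day 7 (Notum, Thrsp). The median of the MHC class I list ranged from −0.32 to 0.038 (without C day 3), with 0.014 without BM day 7, that of cholesterol synthesis from −0.036 (without BM day 7) to 0.16, and that of ion channels and transporters of glia from −0.13 to 0.012 (without BM day 3), with 0.0015 without C day 3. The difference from the change with bFGF was 4816 higher and 1000 lower in limma on unscaled values, and 1769 to 2920 higher and 1382 to 2568 lower with each library left out (1814 and 1468 without C day 3, 1769 and 1382 without BM day 7). Beyond the loss of the CHIR99021 term, the cause of these shifts was not tested. The CHIR99021 term of the fit already sets BM against BM and C against C. No paired analysis by replicate number was possible because the labels give none.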

Other observations

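Of 30 tested genes for axon guidance, 9 were higher on day 7 than on day 3 without bFGF and 10 were lower, against 23.2% and 22.8% of all genes tested. The secreted semaphorin genes Sema3c, from 84.1 and 71.2 FPKM in BM and C to 38.6 and 36.5, and Sema3e (−0.96 ± 0.09) fell, as did the membrane forms Sema6a (−0.99) and Sema6d (−0.82), while the netrin receptor genes Dcc (1.14 ± 0.13) and Unc5b (0.83 ± 0.08) and the ephrin gene Efnb1 (0.75) rose. Of 9 cadherin genes, Cdh1 (E-cadherin) rose most, from 0.16 and 0.65 FPKM to 0.84 and 3.07 (2.23 ± 0.22), and Cdh13 fell most, from 50.04 and 54.5 to 23.6 and 21.2 (−1.28 ± 0.07).

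Of 11 tested genes of an imprinted growth network, Mest rose from 0.32 and 0.82 FPKM to 1.55 and 2.9 and Peg10 from 2.46 and 3.8 to 7.26 and 6.57, whereas the CDK inhibitor gene Cdkn1c fell from 3.1 and 2.52 to 1.34 and 1.19 (−1.21 ± 0.22). Of 19 tested NRF2 targets and ferritin genes 10 rose, among them Nqo1 (0.62 ± 0.10), and 3 fell. Of 20 chemokine, cytokine and complement genes 10 rose and 3 fell, with Cx3cl1 at 36.3 and 20.4 FPKM on day 3 and 77.4 and 44.96 on day 7. Of 18 tested p53 targets 5 rose (27.8%, against 23.2% of all genes tested) and 2 fell (11.1%, against 22.8%), with a median log2 fold change of −0.02. Aen rose most (1.15 ± 0.11), and Cdkn1a and Mdm2 were not called.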
